A study of Mus musculus with 70 samples.

Results

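The central lobule, lobule II (CENT2), and the culmen, lobules IV-V (CUL4,5), are neighbouring folds of the anterior vermis, the midline strip of the cerebellum. They were compared here as 4 CENT2 libraries against 4 CUL4,5 libraries, 8 of the 70 libraries of a bulk RNA-seq atlas of mouse brain regions of energy balance, in which the cerebellar lobules served as regions outside that system. All 8 came from untreated adult (P56) male C57BL/6NTac mice, a strain the labels give as C57BL/6. Each library was made from punches of frozen coronal sections pooled from several mice, so the spread between libraries is that between pools and not between mice. CENT2 was punched from fewer sections per mouse than CUL4,5 and at the same coronal level as the parabrachial nucleus (PB), so lobule and plane of section cannot be told apart. The atlas also holds 49 other adult libraries, among them the uvula (UVU, lobule IX of the posterior vermis, n = 3) and the flocculus (FL, n = 4).

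Every cerebellar lobule has the same layers. Purkinje cells send the only output of the cortex, granule cells drive them through parallel fibres, molecular layer interneurons inhibit them, and Bergmann glia wrap their dendrites. Purkinje cells differ by stripe and lobule in the zebrin set, led by aldolase C (Aldoc), and zebrin-negative stripes prevail in the anterior vermis. The sheet is covered by meninges on its outer face, and the anterior lobules lie over the roof of the fourth ventricle, which is lined by ependymal cells that carry motile cilia and whose cilia genes are switched on by the transcription factor Foxj1.

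The 8 libraries held 13409041 to 19058602 estimated counts, and mitochondrially encoded genes made up 6.16% to 8.35% of the TPM, the share of a library's transcripts that a gene holds after correction for transcript length. The cell types of the cerebellar cortex were there at high levels in both lobules. Pcp2, a Purkinje cell gene, ranged from 1222 to 1941 TPM in CENT2 and from 1708 to 1981 TPM in CUL4,5. Gabra6, the granule cell GABA-A receptor subunit, ranged from 408 to 664 TPM in CENT2 and from 633 to 749 TPM in CUL4,5. Across 36938 genes, Pearson's r of log2(TPM + 1) had a median of 0.9863 within CENT2 (6 pairs), 0.9894 within CUL4,5 (6 pairs) and 0.9825 between the lobules (16 pairs, range 0.9750 to 0.9865). These pairs share libraries, and the values are a description of the libraries only.

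A few libraries stood apart. Values of single libraries are given below in the order of replicates #1 to #4. Tph2, the enzyme of serotonin synthesis in raphe neurons, was at 146.1, 65.0, 0.27 and 3.27 TPM in CENT2 and at 0.81, 0.59, 0.45 and 0.25 TPM in CUL4,5. CENT2 #1 and #2 thus held a transcript of raphe neurons that was at most at 3.27 TPM in the other 6 libraries. Slc6a4, the serotonin transporter, was at 78.4, 46.9, 0.22 and 1.70 TPM in CENT2 and at no more than 0.24 TPM in CUL4,5. In CENT2 #1 alone, the noradrenaline enzyme gene Dbh was at 7.34 TPM and the acetylcholine enzyme gene Chat at 9.48 TPM. The PB libraries, punched at the same coronal level, held 8.69 to 79.8 TPM of Tph2. Slc17a6, listed as a gene of cerebellar nuclear neurons, varied within both lobules. It was at 18.9, 7.05, 0.75 and 12.6 TPM in CENT2 and at 29.4, 1.35, 0.23 and 19.8 TPM in CUL4,5. Slc17a6 was at 94.2 to 112 TPM in the cerebellar nuclei and at 148 to 178 TPM in PB. The source of this spread was not tested. CUL4,5 #1 held more meningeal transcripts than any other of the 8 libraries, with a summed level of 5023 TPM over 14 meningeal fibroblast genes against 1433 to 1583 TPM in CUL4,5 #2 to #4 and 807 to 1402 TPM in CENT2. For genes led by these libraries, the test without them is given where it ends the call. In bulk tissue, fewer cells of a type and less RNA per cell cannot be told apart.

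Most genes called between CENT2 and CUL4,5 were higher in CENT2. Of 15170 genes tested with edgeR's quasi-likelihood test, 573 (3.78%) were called at an adjusted p under 0.05. Of these, 453 (2.99% of the genes tested) were higher in CENT2 and 120 (0.791%) were higher in CUL4,5. With an absolute log2 fold change above 1 as well, 358 genes (2.36%) were called higher in CENT2 and 15 (0.0989%) higher in CUL4,5. The log2 fold changes are CENT2 minus CUL4,5 throughout, and their median over all genes tested was 0.00. The CENT2-higher calls were large, with a median log2 fold change of 2.75, and 218 of them had a mean under 1 TPM in CUL4,5. The CUL4,5-higher calls were small, with a median absolute log2 fold change of 0.37, and 75 of the 120 lay under 0.5. The ranges of the 4 and 4 libraries did not overlap for 415 of the 453 genes and for 108 of the 120, against 1818 (12%) of all genes tested.

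**Figure D1:**
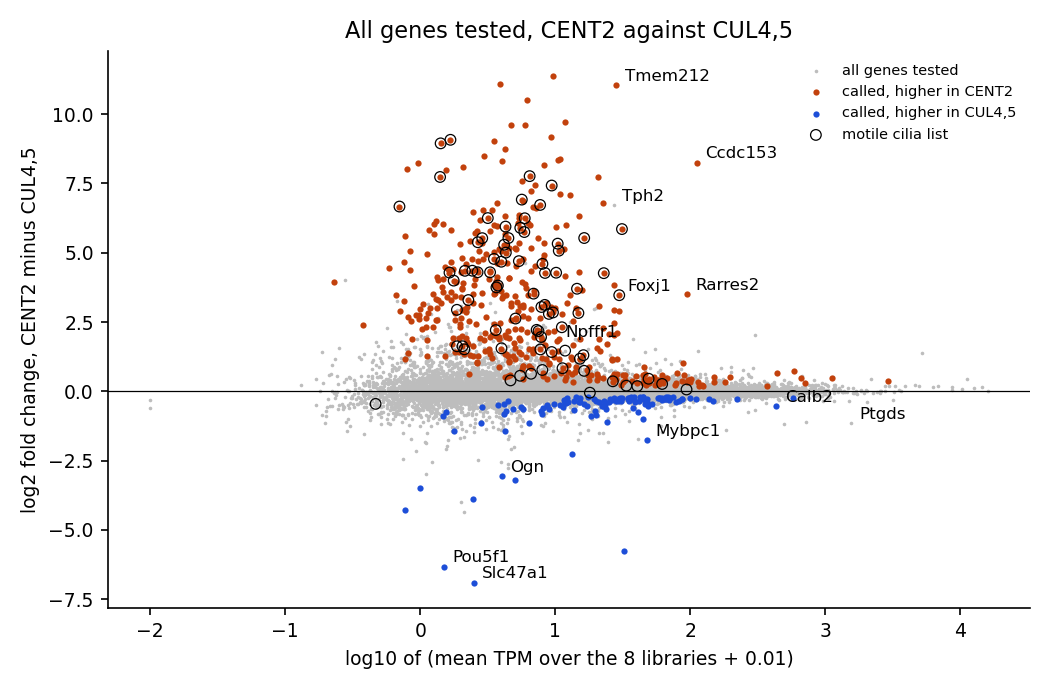
Each point is 1 of the 15170 genes tested. The x axis is the log10 of the mean TPM over the 8 libraries plus 0.01, with the points at its left end listed at 0 TPM, and the y axis is the log2 fold change, CENT2 minus CUL4,5. Orange points are the 453 genes called higher in CENT2, blue points the 120 called higher in CUL4,5, and open circles mark the motile cilia list, which reaches log2 fold changes near 9.

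The counts were compared with those of fits that treat the libraries in other ways. With the preparation batch as a block, 615 genes (4.05%) were called higher in CENT2 and 309 (2.04%) higher in CUL4,5. These held 399 of the 453 and 93 of the 120. CENT2 #1 and CUL4,5 #4 were each the only one of the 8 libraries in their batch. The block fit, here and below, therefore compares the lobules only through the 6 libraries of 3 shared batches. Those 6 libraries without a block gave 200 and 38 genes. Without CENT2 #1 and #2, a fit chosen after the data were seen, 484 genes were higher in CENT2, of which 320 were among the 453, and 155 were higher in CUL4,5, of which 56 were among the 120. Without CUL4,5 #1 the counts were 337 and 55. The number of CUL4,5-higher genes thus moved by more than 1.5 times with 1 library, and it was 43, 40 and 47 without CUL4,5 #2, #3 and #4. Without CENT2 #3 the CENT2-higher count was 755, and without CUL4,5 #3 or #4 it was 290 or 299.

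The genes of motile cilia, a list chosen after the values were seen, were the largest group higher in CENT2 among the lists examined. Of 80 genes that encode axonemal dyneins, their assembly factors, radial spokes, tektins and other cilium parts, 76 were tested, 59 were called higher in CENT2, none was called higher in CUL4,5 and 17 did not pass. Their median log2 fold change was 3.61, beside 0.00 over all genes, of which 2.99% were called higher in CENT2. Their summed level was 1533, 1675, 738 and 908 TPM in CENT2 and 462, 419, 430 and 449 TPM in CUL4,5. Every CENT2 library lay above every CUL4,5 library, and CENT2 #1 and #2, the libraries with raphe transcripts, lay highest. Without those libraries 55 of the 76 were called higher in CENT2, with a median of 2.62, and with the batch block 59 were.

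Foxj1 (chr11:116330704-116335399, minus strand, GRCm38), the transcription factor that switches on motile cilia genes, was at 66.6, 82.8, 29.5 and 39.0 TPM in CENT2 and at 4.19, 5.21, 5.94 and 4.75 TPM in CUL4,5. The ranges were apart, with a log2 fold change of 3.47 ± 0.33 (SE, n = 4 and 4; adjusted p = 0.00175), and of 2.81 without CENT2 #1 and #2. Rfx2, a factor that acts with Foxj1 on cilia genes, was at 8.40, 8.25, 4.70 and 5.75 TPM in CENT2 and at 2.77, 2.91, 2.65 and 3.20 TPM in CUL4,5 (log2 fold change 1.26, adjusted p = 0.00681). Its relative Rfx3 was at 7.01 to 8.31 TPM in CENT2 and at 6.90 to 8.42 TPM in CUL4,5, with overlapping ranges (log2 fold change 0.09 ± 0.09, SE). Myb, which acts early in the making of multiciliated cells, was at 5.33, 6.18, 1.76 and 1.63 TPM in CENT2 and at 0.10 to 0.44 TPM in CUL4,5 (log2 fold change 4.31, adjusted p = 0.00475). Rfx2, Rfx3 and Myb were picked after their values were seen.

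The parts of the axoneme moved together. Dnah12, an inner arm dynein heavy chain, was at 4.51, 4.91, 1.29 and 2.57 TPM in CENT2 and at 0.01 TPM or less in CUL4,5, where so few reads were counted that the ratio of the counts, 674.5, has a 95% counting interval of 186.4 to 5575. Dnah9 and Dnah5, outer arm dynein heavy chains, had log2 fold changes of 5.90 and 3.99. Dnali1, a light chain of the inner arm, was at 28.6, 30.6, 8.69 and 13.4 TPM in CENT2 and at 0.37 to 0.67 TPM in CUL4,5. Rsph1, a radial spoke head protein, was at 45.3, 51.4, 12.5 and 18.8 TPM in CENT2 and at 0.34 to 1.38 TPM in CUL4,5. In each of these the lowest CENT2 value came from #3 and stayed above the highest CUL4,5 value. Cfap65, a cilium and flagellum associated protein, had a log2 fold change of 7.42. Cfap221, of the central pair, was at 3.84, 4.32, 1.15 and 1.94 TPM in CENT2 with no count in CUL4,5, at least 81.2-fold higher against a floor of 3 counts over the group. Members that other cells use as well had smaller values. Dnal1 and Dnal4, light chains of dynein, had log2 fold changes of 0.20 and 0.19, Cfap36 of 0.07 and Cfap97 of -0.05, and none of these passed the test. Ccdc39, a ruler of axoneme repeats, was at 16.3 to 25.6 TPM in CENT2 and at 7.92 to 10.5 TPM in CUL4,5, a log2 fold change of 1.18.

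The promoters of the cilia genes were read for the letters GTTGCC, the core of the X-box that RFX factors bind, on both strands (GGCAAC on the other). The window ran from 250 bases before to 50 bases after the start site, from RefSeq on GRCm38.p6. Of the 59 called motile cilia genes, 46 had a promoter in the table and 17 of these (37.0%) held the motif. It was in 1703 of 11264 (15.1%) promoters of all genes tested and in 7 of 76 (9.2%) promoters of the CUL4,5-higher genes. The 4 stretches of 100 bases below are shown as examples of called cilia genes with the motif upstream of the start site, once in the first 2 and more than once in the others. They are Cfap58 (chr19:47937606-47937705, plus strand), Dynlrb2 (chr8:116504915-116505014, plus strand), Spag16 (chr1:69826812-69826911, plus strand) and Cfap161 (chr7:83794853-83794952, minus strand), written 5′ to 3′ along the gene with the motif in capitals.
Cfap58: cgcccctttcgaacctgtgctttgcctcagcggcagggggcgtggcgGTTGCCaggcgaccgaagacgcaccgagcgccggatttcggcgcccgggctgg
Dynlrb2: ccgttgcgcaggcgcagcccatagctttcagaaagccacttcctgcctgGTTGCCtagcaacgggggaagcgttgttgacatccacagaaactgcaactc
Spag16: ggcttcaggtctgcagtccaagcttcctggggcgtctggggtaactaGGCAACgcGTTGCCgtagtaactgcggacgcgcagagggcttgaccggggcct
Cfap161: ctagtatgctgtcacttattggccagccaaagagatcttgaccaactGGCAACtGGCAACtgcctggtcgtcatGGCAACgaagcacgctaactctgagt

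The motif lies -59 bases from the start site in Cfap58 and -51 in Dynlrb2. Dynlrb2, a dynein light chain of cilia, was at 88.1, 98.8, 22.0 and 36.2 TPM in CENT2 and at 0.43 to 1.83 TPM in CUL4,5. Cfap161 was at 13.5 to 43.6 TPM in CENT2 and at 1.55 to 2.24 TPM in CUL4,5. Spag16, of the central pair, was at 3.29 to 10.9 TPM in CENT2 and at 0.04 to 1.97 TPM in CUL4,5, and Cfap58 was at 0.59 to 2.54 TPM in CENT2 and at 0.03 TPM or less in CUL4,5. The ranges did not overlap for these 4 genes. A match of letters is no measured binding site.

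Genes of a second list, of ependymal cells, moved with the cilia genes. This list too was chosen after the values were seen, so its counts are a description only. Of 8 ependymal genes 7 were called higher in CENT2, where 2.99% of all genes were. The summed level of the 8 was 1524, 1615, 387 and 699 TPM in CENT2 and 313, 94.3, 104 and 126 TPM in CUL4,5. Ccdc153 (chr9:44240676-44247306, plus strand) was at 328, 343, 87.7 and 139 TPM in CENT2 and at 1.46, 1.09, 0.12 and 0.30 TPM in CUL4,5 (log2 fold change 8.25 ± 0.73, SE; adjusted p = 0.00175). Tmem212 was at 75.0, 93.0, 18.7 and 39.5 TPM in CENT2 with no count in CUL4,5, at least 350.6-fold higher against the same floor. Rarres2, which encodes the secreted protein chemerin, was at 230, 290, 66.6 and 109 TPM in CENT2 and at 17.4, 16.7, 15.2 and 13.6 TPM in CUL4,5 (log2 fold change 3.52, adjusted p = 0.00323). In all of these CENT2 #1 and #2 lay above #3 and #4, and #3 and #4 lay above every CUL4,5 library. Hdc, which makes histamine, had a log2 fold change of 1.68 and Tm4sf1 one of 2.09, and both passed the test also without CENT2 #1 and #2. Mia passed with all 8 libraries (adjusted p = 0.037) and not without CENT2 #1 and #2 (adjusted p = 0.135). Nnat, which neurons also express, did not pass (adjusted p = 0.114), with 157 to 728 TPM in CENT2 and 56.04 to 264 TPM in CUL4,5. Outside the motile cilia and ependymal lists, 387 genes were called higher in CENT2 and 120 higher in CUL4,5.

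**Figure D2:**
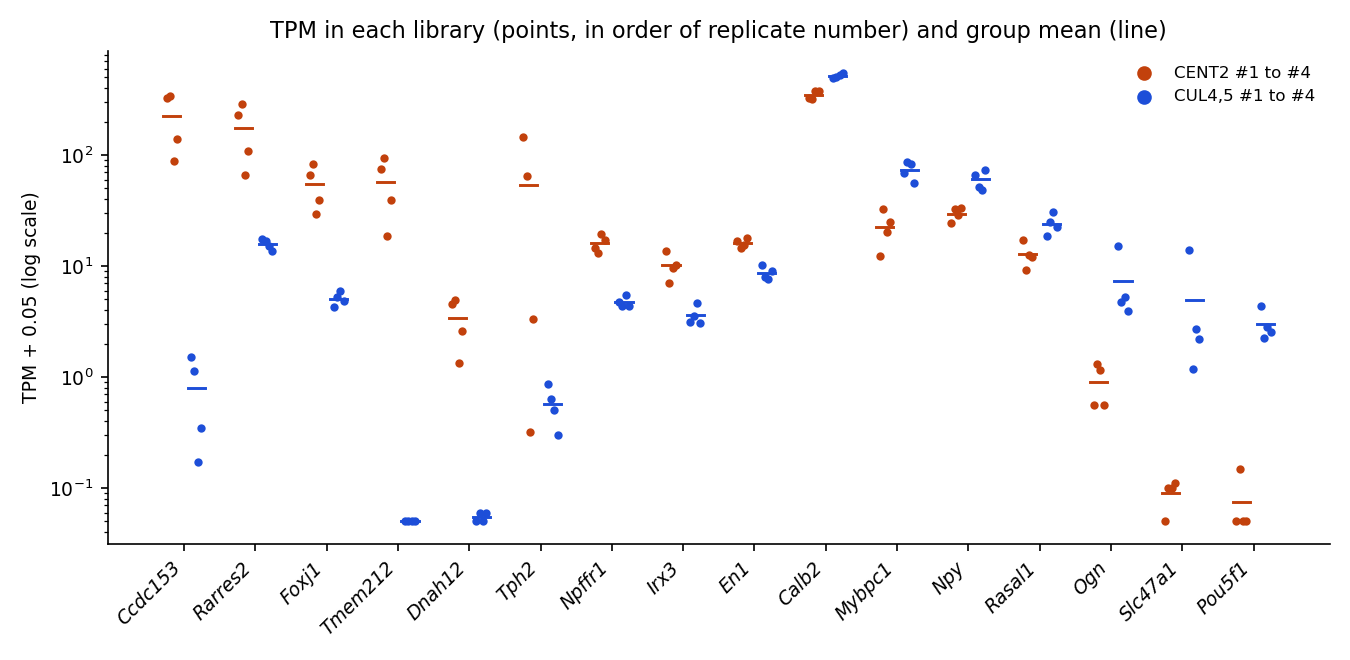
TPM plus 0.05 on a log scale for 16 genes, with 1 point per library in the order of replicates #1 to #4 and a line at the mean of each lobule. Ccdc153, Rarres2, Foxj1, Tmem212 and Dnah12 lie apart between the lobules in every library, whereas Tph2 is high in CENT2 #1 and #2 only and Ogn and Slc47a1 are highest in CUL4,5 #1.

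The largest named differences had the same kind of values. Among the 12 CENT2-higher genes with the largest log2 fold changes, Fam216b was at 27.4, 31.7, 5.67 and 11.5 TPM in CENT2 with no count in CUL4,5 (at least 437.8-fold). Ccdc180, Spata18, Nme9 and Sntn, the last a protein of the ciliary tip, likewise had no count in CUL4,5 and were at least 356.2-fold, 239.1-fold, 130.6-fold and 86.8-fold higher in CENT2. Mapk15, a kinase of ciliary bases, was at 24.3, 29.5, 10.1 and 10.6 TPM in CENT2 against 0.10 TPM or less in CUL4,5 (count ratio 864.4, 95% counting interval 154.7 to 34180.7). Wdr63, an inner arm dynein chain, had a count ratio of 635.5 (113.7 to 25138.5). Col6a5, a collagen VI chain that is no part of cilia, was at 11.5, 15.2, 5.33 and 5.74 TPM in CENT2 against 0.02 TPM or less in CUL4,5, a count ratio of 981.3 (271.3 to 8109). Rd3, a photoreceptor guanylate cyclase regulator, was at 2.61 to 9.55 TPM in CENT2 and at 0.08 TPM or less in CUL4,5. Its counted transcripts did not add up to its TPM, as also for Cfap43, so no bound is given for it.

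Among the 18 adult regions, CENT2 had the highest mean of Foxj1, Ccdc153, Tmem212 and Rarres2, and CUL4,5 ranked 15, 16, 16 and 10. Over the summed motile cilia genes CENT2 ranked 2 behind the arcuate nucleus (ARH), and CUL4,5 ranked 18. Ccdc153 ranged from 63.6 to 118 TPM in the ventromedial hypothalamus (VMH, n = 2), which had the next highest mean, so that CENT2 #3, at 87.7 TPM, lay within the range of VMH. For Foxj1 the cerebellar nuclei (CBN) came next with 25.9 to 57.4 TPM, a range that overlaps that of CENT2. In UVU and FL, Foxj1 was at 5.20 to 12.7 TPM and at 13.0 to 21.3 TPM.

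**Figure D3:**
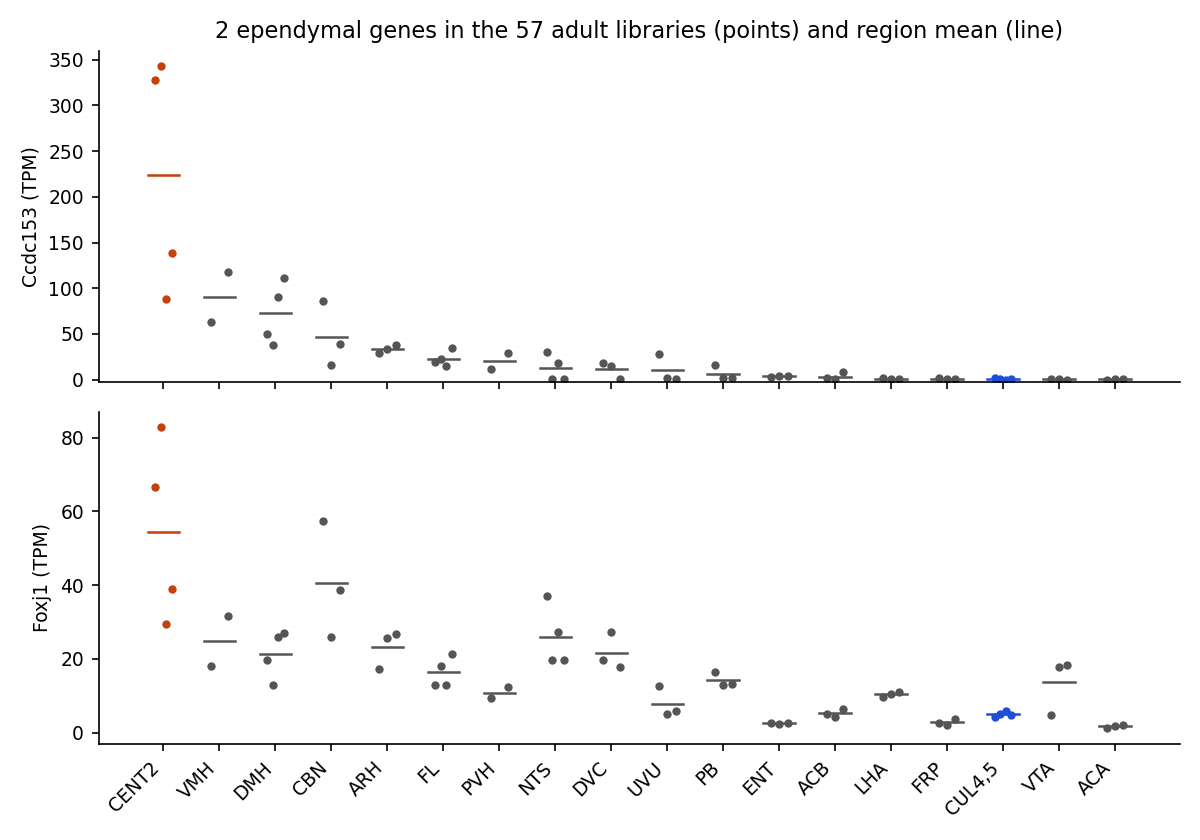
Ccdc153 (top) and Foxj1 (bottom) in TPM in each of the 57 adult libraries, by region in the order of mean Ccdc153, with a line at each region mean. CENT2 (orange) has the highest mean of both genes and CUL4,5 (blue) lies near 0 for Ccdc153 and between 4.19 and 5.94 TPM for Foxj1.

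Choroid plexus, the other ciliated tissue of the ventricle, gave a mixed picture. Of 10 choroid plexus genes 7 were tested and 2 were called higher in CENT2, where 2.99% of all genes were. Folr1, the folate receptor, was at 13.4, 13.3, 2.97 and 5.77 TPM in CENT2 and at 0.28 TPM or less in CUL4,5 (log2 fold change 5.16, adjusted p = 0.00388). Clic6, a chloride channel protein, passed at an adjusted p of 0.0472 with overlapping ranges, and it did not with the batch block (0.059), without CENT2 #1 and #2 (0.0931) or without CUL4,5 #1 (0.123). Ttr, transthyretin, the defining product of the plexus, was at 2.85, 1.5, 1.38 and 3.10 TPM in CENT2 and at 0.95, 0.42, 0.11 and 0.10 TPM in CUL4,5 (adjusted p = 0.0618). Its ranges did not overlap. It passed without CUL4,5 #1 (0.0271), and not with the batch block (0.147) or without CENT2 #1 and #2 (0.116). In CBN, Ttr was at 3438 to 12242 TPM, so the marker that defines the plexus was near 0 in both lobules.

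**Figure D4:**
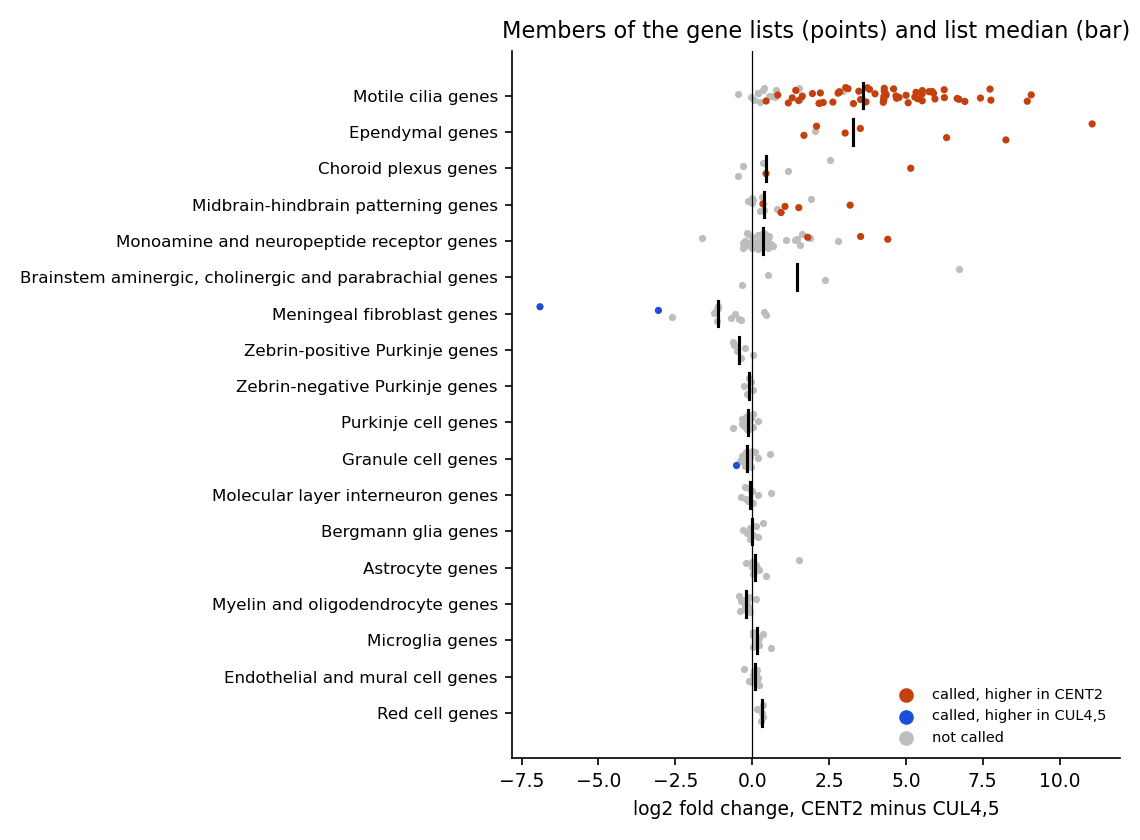
Log2 fold change, CENT2 minus CUL4,5, of each tested member of 18 gene lists (points) with the list median (black bar). Orange and blue points passed the test as higher in CENT2 or in CUL4,5. The motile cilia and ependymal lists, both chosen after the values were seen, have medians of 3.61 and 3.27 and the meningeal list one of -1.11. The zebrin-positive Purkinje list has a median of -0.44, and the medians of the other lists of cerebellar neurons and glia lie near 0.

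Meningeal fibroblast genes gave calls in the other direction. Of 14 genes tested, 2 were called higher in CUL4,5, where 0.791% of all genes were, and none higher in CENT2. The median log2 fold change was -1.11, with 12 genes below 0 and 2 above. The 2 above were Dcn at 0.45 and Lum at 0.37, and neither was called. Ogn, a matrix proteoglycan, was at 0.51, 1.25, 1.11 and 0.51 TPM in CENT2 and at 15.1, 4.73, 5.20 and 3.85 TPM in CUL4,5 (log2 fold change -3.05 ± 0.53, SE; adjusted p = 0.0126). Slc47a1, an efflux transporter, was at 0.06 TPM or less in CENT2 and at 13.8, 1.12, 2.63 and 2.15 TPM in CUL4,5 (count ratio 137.1, 95% counting interval 46.6 to 667.8; adjusted p = 0.0107). CUL4,5 #1 was highest for both, and CUL4,5 #2 to #4 still lay above every CENT2 library. Neither gene passed without CENT2 #1 and #2 (adjusted p = 0.0528 and 0.078), a fit that leaves 2 libraries in CENT2. Without CUL4,5 #1 both passed (adjusted p = 0.0146 and 0.0107), with log2 fold changes of -2.41 and -5.58. With the batch block 10 of the 14 were called higher in CUL4,5, where 2.04% of all genes were. Ptgds, prostaglandin D synthase, the most abundant of the list, was at 1103, 1211, 807 and 697 TPM in CENT2 and at 4627, 1445, 1315 and 1284 TPM in CUL4,5 (adjusted p = 0.201, and 0.0156 with the block). Its ranges did not overlap, and CUL4,5 #1 lay far above the rest. The fibroblast collagen gene Col1a1 was at 4.88 to 11.1 TPM in CENT2 and at 6.47 to 20.7 TPM in CUL4,5, with overlapping ranges.

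Among the 12 largest CUL4,5-higher differences, 4 further genes outside that list were also highest in CUL4,5 #1. Prg4, lubricin, was at 0.36, 0.38, 0.49 and 0.51 TPM in CENT2 and at 10.5, 2.83, 2.68 and 1.98 TPM in CUL4,5. Omd and Fmod, small proteoglycans of connective tissue, had log2 fold changes of -3.49 (adjusted p = 0.0162) and -2.25 (adjusted p = 0.0311). Slc26a7, an anion exchanger, had a log2 fold change of -4.28 (adjusted p = 0.0403). CUL4,5 #2 to #4 lay above CENT2 in each of the 4 genes as well. Without CUL4,5 #1, Prg4 and Fmod passed at an adjusted p of 0.0107 and Omd at 0.0454, whereas Slc26a7 did not (0.0536). Without CENT2 #1 and #2, Omd passed (0.0435), and Prg4 (0.0562), Fmod (0.0877) and Slc26a7 (0.113) did not. In FL and ARH, Prg4 was at 3.63 to 13.6 TPM and at 6.18 to 15.6 TPM. The part of meningeal tissue in these differences was not tested.

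Pou5f1, the pluripotency factor Oct4, was at 0, 0.10, 0 and 0 TPM in CENT2 and at 4.27, 2.19, 2.80 and 2.47 TPM in CUL4,5, in every library above every other adult library, which held at most 0.72 TPM. The ratio of its counts was 119.6 (95% counting interval 21.1 to 4763; adjusted p = 0.00175). No other of the 4 tested genes of embryonic stem cells, a list chosen after the values were seen, was called. Esrrb was at 6.20 to 7.54 TPM in CENT2 and at 8.27 to 10.02 TPM in CUL4,5. Its ranges did not overlap (log2 fold change -0.34, adjusted p = 0.102). Nanog was at 1.03 to 1.53 TPM in CENT2 and at 0.33 to 1.93 TPM in CUL4,5, and Tdgf1 was at 2.85 to 3.76 TPM and at 3.38 to 5.33 TPM. Dppa5a was at 0, 0.27, 0 and 0 TPM in CENT2 and at 0.83, 0, 3.89 and 0.30 TPM in CUL4,5 and was not tested. Short reads of Pou5f1 can also come from its pseudogenes, which the estimated counts split by likelihood. Gm10080, annotated as a processed pseudogene, was at 0, 4.48, 0 and 0 TPM in CENT2 and at 73.7, 89.0, 28.04 and 63.4 TPM in CUL4,5 (adjusted p = 0.00684). Processed pseudogenes can share reads with the genes they were copied from, and the value is uncertain for that reason.

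The other genes among the 12 with the largest CUL4,5-higher changes, described here with Calb2, differed by less. Mybpc1 (chr10:88518279-88605152, minus strand), a myosin binding protein, was at 12.3, 32.6, 20.2 and 24.7 TPM in CENT2 and at 68.3, 87.1, 83.0 and 56.3 TPM in CUL4,5 (log2 fold change -1.75 ± 0.27, SE; adjusted p = 0.00676). CENT2 #1 was the lowest library, and the value was the same without CENT2 #1 and #2, at -1.75. Npy, the neuropeptide, was at 24.1, 32.5, 28.5 and 33.0 TPM in CENT2 and at 66.6, 51.6, 48.7 and 73.8 TPM in CUL4,5, 2 groups that lay apart (log2 fold change -0.99, adjusted p = 0.0117). It was the only one called of 11 neuropeptide genes tested, of 26 in a list chosen after the values were seen. Over all genes 3.78% were called. Calb2, calretinin, a calcium buffer of granule and unipolar brush cells, was at 329, 317, 374 and 378 TPM in CENT2 and at 496, 507, 524 and 545 TPM in CUL4,5 (log2 fold change -0.53 ± 0.07, SE; adjusted p = 0.00406). The spread within each lobule was small beside the difference between them. Calb2 was the only one of 21 granule cell genes called in either direction, where 3.78% of all genes were. The median of the list was -0.16. With the batch block 6 of the 21 were called, Calb2, Fat2, Reln and Tiam1 higher in CUL4,5 and Neurod2 and Uncx higher in CENT2. Over all genes the block called 2.04% higher in CUL4,5 and 4.05% higher in CENT2. Rlbp1, a retinoid binding protein of glia, was at 2.75 to 4.72 TPM in CENT2 and at 7.13 to 9.98 TPM in CUL4,5 (log2 fold change -1.13, adjusted p = 0.00847). Il23a, a cytokine subunit, and Car13, a carbonic anhydrase, had log2 fold changes of -1.44 and -1.13, and neither passed without CENT2 #1 and #2 (adjusted p = 0.0921 and 0.0507) or without CUL4,5 #1 (0.0627 and 0.0791).

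Further genes called higher in CUL4,5 had other roles. Counts over lists are read against 3.78% of all genes called. With the batch block 4.05% of all genes were called higher in CENT2 and 2.04% higher in CUL4,5. Cpne9, a calcium dependent membrane binding protein, was at 28.6, 34.4, 35.05 and 27.7 TPM in CENT2 and at 47.8, 43.9, 61.4 and 50.5 TPM in CUL4,5 (log2 fold change -0.76 ± 0.07, SE; adjusted p = 0.00175). Rasal1, a Ras GTPase activating protein, was at 17.2, 9.21, 12.6 and 12.01 TPM in CENT2 and at 18.7, 24.6, 30.4 and 22.3 TPM in CUL4,5 (log2 fold change -0.88, adjusted p = 0.00175). The ranges of Rasal1 came close, with CENT2 #1 next to CUL4,5 #1. Epha8, a guidance receptor and the only one of 21 tested Eph and ephrin genes called (3 with the batch block), was at 16.2 to 21.3 TPM in CENT2 and at 27.2 to 27.9 TPM in CUL4,5 (log2 fold change -0.50, adjusted p = 0.00797). Adgrb3, the receptor for C1q-like proteins at climbing and parallel fibre synapses, had a log2 fold change of -0.23 (adjusted p = 0.0365) and was the only one of 12 synapse organisers called. It did not pass without CENT2 #1 and #2 (adjusted p = 0.0552) or without CUL4,5 #1 (0.0977). Kcnh3, a voltage-gated potassium channel, was at 2.46 to 3.49 TPM in CENT2 and at 4.86 to 5.63 TPM in CUL4,5 (adjusted p = 0.0105). Kcnmb1, a subunit of the large conductance potassium channel, went the other way with 5.61, 5.92, 1.60 and 2.19 TPM in CENT2 and 0.38 to 0.69 TPM in CUL4,5 (adjusted p = 0.00898). These were the only calls among 70 potassium channel genes tested, of which 4 were higher in CENT2 and 5 higher in CUL4,5 with the batch block. Without the block the share of potassium channel genes called was no larger than the 3.78% over all genes. Grm2, a metabotropic glutamate receptor of Golgi cells, passed with overlapping ranges (log2 fold change -0.52, adjusted p = 0.0131; 0.0505 with the block and 0.0535 without CENT2 #1 and #2). In TPM it was at 13.6 to 18.8 in CENT2 and at 16.4 to 19.8 in CUL4,5. Car7, a carbonic anhydrase of neurons, and Synpr, a synaptic vesicle protein, had log2 fold changes of -0.59 and -0.45. Neither passed without CENT2 #1 and #2 (adjusted p = 0.0661 and 0.112) or without CUL4,5 #1 (0.0773 and 0.0783).

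**Figure D5:**
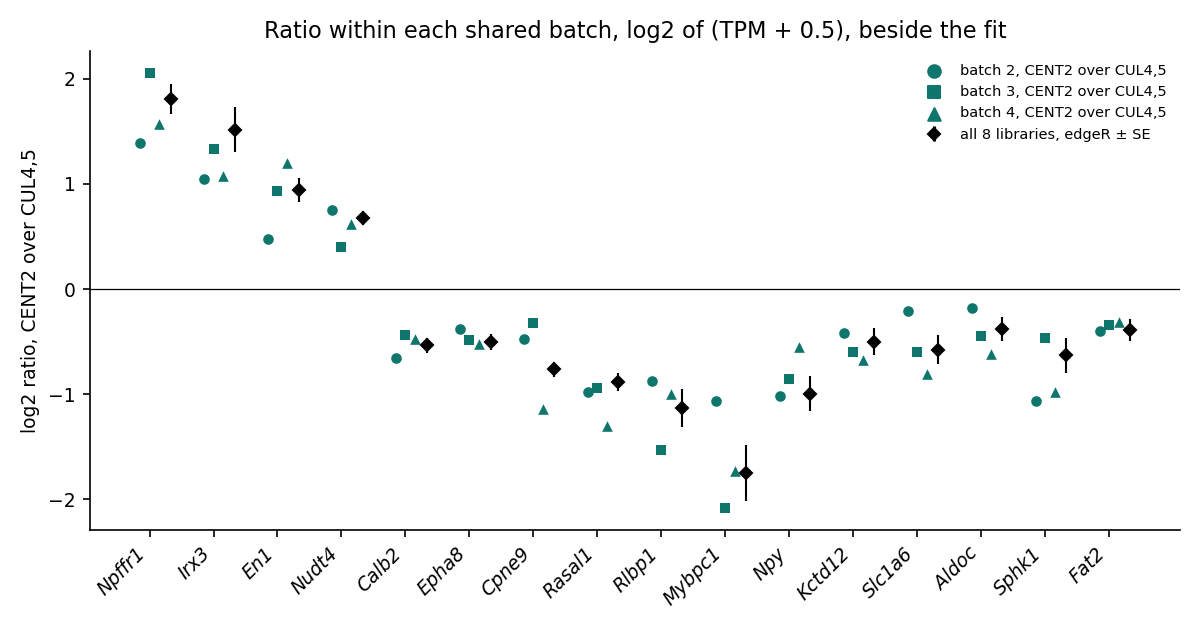
Log2 ratio of CENT2 over CUL4,5 (TPM plus 0.5) within each of the 3 batches that hold both lobules (green), beside the edgeR log2 fold change over all 8 libraries with its SE (black). Npffr1, Irx3, En1 and Nudt4 lie above 0 and the other 12 genes below 0 in each batch.

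Of 6 zebrin-positive Purkinje genes none passed over the 8 libraries, and the median log2 fold change was -0.44. Aldoc was at 1671, 1754, 2081 and 1500 TPM in CENT2 and at 1986, 2853, 2310 and 2154 TPM in CUL4,5, with overlapping ranges (log2 fold change -0.38, adjusted p = 0.123). Slc1a6, the Purkinje cell glutamate transporter, was at 77.7, 115, 107 and 100 TPM in CENT2 and at 133, 163, 176 and 138 TPM in CUL4,5, where the ranges did not overlap (log2 fold change -0.58, adjusted p = 0.0558). Kctd12, an auxiliary GABA-B receptor subunit, was at 26.4 to 34.1 TPM in CENT2 and at 37.0 to 54.7 TPM in CUL4,5 (adjusted p = 0.0737). With the batch block 4 of the 6 were called higher in CUL4,5, where 2.04% of all genes were. The 4 were Aldoc (adjusted p = 0.0422), Slc1a6 (0.0324), Kctd12 (0.00306) and Sphk1 (0.046). With 1 library left out at a time and no block, the adjusted p of Sphk1 ran from 0.0395, without CENT2 #3, to 0.199, and the first was the only one of these fits in which it passed. In UVU, Aldoc was at 4042 to 4795 TPM, and the log2 fold change against UVU was -1.28 for CENT2 and -0.87 for CUL4,5, both past the test. Of 5 zebrin-negative genes none was called and the median was -0.10. Plcb4, the phospholipase of zebrin-negative Purkinje cells, was at 255 to 362 TPM in CENT2 and at 291 to 320 TPM in CUL4,5.

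Most lists of cerebellar cell types held no call, read against 3.78% of all genes called. Counts with the batch block are read against 4.05% of all genes higher in CENT2 and 2.04% higher in CUL4,5. None of 15 Purkinje cell genes (median -0.14), 9 molecular layer interneuron genes (-0.08), 8 Bergmann glia genes (-0.01), 10 astrocyte genes (0.10), 12 microglia genes (0.17) or 13 endothelial and mural cell genes (0.10) was called. Of 20 myelin and oligodendrocyte genes none was called either, 19 had a log2 fold change below 0, and 5 were called higher in CUL4,5 with the block. Nefh, neurofilament heavy chain, listed as a Purkinje subset marker, was called higher in CENT2 at 105, 116, 111 and 129 TPM against 91.2, 93.1, 79.4 and 83.9 TPM (log2 fold change 0.44, adjusted p = 0.0162). Immediate early genes (20 tested), clock genes (16) and stress genes (13) held no call. With the batch block the astrocyte, clock and stress lists held 1 call each higher in CENT2 (Slc6a11, Dbp and Hsp90aa1), and the endothelial list held 1 higher in CUL4,5 (Vtn). Of 56 clustered protocadherin genes tested 53 had a log2 fold change below 0, with a median of -0.17 and no call (1 with the block). Of 83 cytosolic ribosomal protein genes tested Rpl10a was called higher in CENT2 (adjusted p = 0.0439, 0.0952 without CENT2 #1 and #2 and 0.117 without CUL4,5 #1), and with the block 12 were. Of 25 ciliopathy genes of syndromic obesity, which serve mostly the immotile primary cilium, Alms1 was called, at 11.8 to 14.3 TPM in CENT2 and at 16.9 to 18.5 TPM in CUL4,5 (log2 fold change -0.39, adjusted p = 0.0241, and 0.0707 without CENT2 #1 and #2).

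Patterning genes of the midbrain and hindbrain were called higher in CENT2 in 5 of 14 tested, where 2.99% of all genes were, with none higher in CUL4,5. Without CENT2 #1 and #2 the count was 3. En1, which builds the cerebellum from the isthmus, was at 16.8, 14.4, 15.6 and 18.0 TPM in CENT2 and at 10.2, 7.94, 7.53 and 8.92 TPM in CUL4,5 (log2 fold change 0.94 ± 0.11, SE; adjusted p = 0.00242). Irx3, an Iroquois factor, was at 13.7, 6.95, 9.60 and 10.2 TPM in CENT2 and at 3.11, 3.51, 4.55 and 3.02 TPM in CUL4,5 (log2 fold change 1.52, adjusted p = 0.00478). Both genes kept their calls without CENT2 #1 and #2. Irx5 passed at an adjusted p of 0.0403 (0.134 without CENT2 #1 and #2 and 0.0798 without CUL4,5 #1). Nr2f1 passed at 0.0357 with overlapping ranges, and it did not with the batch block (0.0659) or without CUL4,5 #1 (0.0901). Its log2 fold change on counts was 0.35. In TPM it was at 37.3, 27.0, 21.5 and 26.95 in CENT2 and at 23.6 to 27.2 in CUL4,5. Within the shared batches the log2 ratios of TPM plus 0.5 were 0.09, -0.17 and -0.01. In TPM only CENT2 #1 thus lay above CUL4,5. Lmx1b, a factor of serotonin neurons, was at 5.18, 2.54, 0.48 and 1.5 TPM in CENT2 and at 0.15 to 0.75 TPM in CUL4,5, highest in the libraries with raphe transcripts (adjusted p = 0.0421, and 0.122 without them).

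Of 83 receptors for monoamines and neuropeptides, a list chosen after the values were seen, 41 were tested and 3 were called, each higher in CENT2, where 2.99% of all genes were. With the batch block 4 were called higher in CENT2 and 1 higher in CUL4,5, where 4.05% and 2.04% of all genes were. Npffr1 (chr10:61595492-61628565, plus strand), the receptor for RFamide peptides, was at 14.3, 13.2, 19.5 and 16.97 TPM in CENT2 and at 4.71, 4.30, 5.38 and 4.34 TPM in CUL4,5. Its log2 fold change was 1.81 ± 0.14 (SE; adjusted p = 0.00175), and CENT2 #3 and #4, which held little or no raphe transcript, were the highest. Npy2r, a receptor for neuropeptide Y, was at 4.00, 2.60, 0.88 and 1.54 TPM in CENT2 and at 0.14 to 0.35 TPM in CUL4,5 (adjusted p = 0.0047). Htr5b, a serotonin receptor, was at 6.13, 3.68, 1.51 and 1.90 TPM in CENT2 and at 0.06 to 0.28 TPM in CUL4,5 (adjusted p = 0.00432). These 2 genes were highest in CENT2 #1 and #2, and both passed also without those libraries (adjusted p = 0.0116 and 0.00897). Tph2 itself did not pass (log2 fold change 6.73 ± 1.73, SE; adjusted p = 0.0739, and 0.00719 with the block), and none of the 4 tested members of the brainstem list of 12 was called.

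Several genes of wide expression were higher in CENT2 by small amounts. Nudt4, a hydrolase of inositol pyrophosphates, was at 104, 106, 85.0 and 93.9 TPM in CENT2 and at 62.9, 64.1, 61.0 and 61.5 TPM in CUL4,5 (log2 fold change 0.68 ± 0.07, SE; adjusted p = 0.00175). Gnas, the stimulatory G protein subunit, was at 1361, 1045, 1267 and 1456 TPM in CENT2 and at 959 to 991 TPM in CUL4,5 (adjusted p = 0.0366). Sparc, a matrix glycoprotein, was at 930, 742, 626 and 563 TPM in CENT2 and at 403 to 486 TPM in CUL4,5 (adjusted p = 0.0178). Slc2a1, the glucose transporter of the blood-brain barrier, passed with overlapping ranges (adjusted p = 0.0403), and it did not without CENT2 #1 and #2 (0.142) or without CUL4,5 #1 (0.105). The endothelial gene Cldn5 did not pass (adjusted p = 0.645). Without CUL4,5 #1 Gnas (0.0979) and Sparc (0.0524) did not pass either. Collagen genes went both ways, with Col6a5, Col5a3 and Col8a2 higher in CENT2 and Col5a1 and Col19a1 higher in CUL4,5 among 41 tested. Over all genes 2.99% were called higher in CENT2 and 0.791% higher in CUL4,5. With the batch block 4 collagen genes were higher in CENT2 and 6 higher in CUL4,5, where 4.05% and 2.04% of all genes were. Col8a2 was at 11.1, 12.6, 3.36 and 4.74 TPM in CENT2, highest in the libraries with raphe transcripts, and at 0.84 to 3.03 TPM in CUL4,5 (adjusted p = 0.0496, and 0.176 without those libraries). Col19a1 did not pass without CENT2 #1 and #2 (adjusted p = 0.0552). Col5a3 was at 6.16 to 8.66 TPM in CENT2 and at 3.53 to 5.07 TPM in CUL4,5, whereas Col5a1 was at 5.02 to 7.73 TPM and at 10.2 to 10.8 TPM.

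Against UVU, the posterior lobule of the same vermis, 1110 of 16137 genes tested (6.88%) were called for CENT2, 744 (4.61%) higher in CENT2 and 366 (2.27%) higher in UVU. For CUL4,5 the test called 728 (4.51%), 418 (2.59%) higher in CUL4,5 and 310 (1.92%) higher in UVU. Both comparisons use the same UVU libraries, and their values are set side by side only. They come from 1 model of the 15 cerebellar cortex libraries, not from the fit of CENT2 and CUL4,5 alone. In that model CENT2 against CUL4,5 gave 661 genes higher in CENT2 and 184 higher in CUL4,5. Counts from the fit of CENT2 and CUL4,5 alone are therefore not on the same footing as the UVU counts. Without UVU #3 the 4 counts by direction were 402, 217, 250 and 206, and without UVU #2 the first 3 were 431, 218 and 275. Mybpc1 was at 103 to 108 TPM in UVU, and its log2 fold change against UVU was -2.27 for CENT2 (adjusted p = 9.91e-05) and -0.49 for CUL4,5 (adjusted p = 0.345). Npffr1 was at 9.85 to 15.9 TPM in UVU, with log2 fold changes of 0.33 for CENT2 (adjusted p = 0.367) and -1.45 for CUL4,5 (adjusted p = 0.000457). Irx3 was at 19.3 to 23.2 TPM in UVU, above both lobules, with -1.11 for CENT2 and -2.59 for CUL4,5. Rasal1 was at 3.29 to 8.46 TPM in UVU, below both, with 1.48 and 2.39. For Npy the values were 0.12 for CENT2 (adjusted p = 0.801) and 1.14 for CUL4,5 (adjusted p = 0.00352). Foxj1 had 2.77 for CENT2 (adjusted p = 0.000587) and -0.66 for CUL4,5 (adjusted p = 0.486).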

How the data were processed

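RNA from punch biopsies was sequenced as single reads after mRNA library preparation. The authors quantified transcripts with kallisto, after CASAVA 1.8.2 per the labels, and deposited estimated counts per transcript and TPM per gene on GRCm38. Estimated counts were summed per gene over the 98.8% of transcripts matched to a gene of GENCODE mouse release 21 (GRCm38), which also gave the coordinates, and rounded to whole numbers. For 365 genes the summed transcripts did not give the deposited TPM. The 4 CENT2 and 4 CUL4,5 libraries were compared by a two-sided quasi-likelihood F test (edgeR 4.0.16, run under R 4.3.3) after filterByExpr and TMM scaling, with Benjamini-Hochberg adjustment over 15170 genes. UVU contrasts were fitted with FL in 1 model.

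The members and the gene lists were chosen with earlier results of these data known. Of 37 lists, 5 (motile cilia, ependymal, receptors, neuropeptides, stem cell genes) were chosen after the values were seen. The genes named were the 12 largest called changes in each direction with ranges apart and a mean of at least 1 TPM, and genes from 3 other sources. These were the called members of each list (up to 4), the first genes of cell type lists, and others picked after their values were seen.

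The labels state no batch. Preparation batches were inferred from runs of library numbers in the labels, matched to the regions the study lists per batch. In the 3 batches with both lobules, deviations from the lobule means correlated at 0.199 to 0.344. Pairs of libraries from different batches ran from -0.378 to 0.384, so these correlations do not single out the inferred batch. Values with the batch as a block are given as well, from a fit that has few libraries left to measure the spread. Counting intervals (95%, exact) and the floor of 3 counts cover counting error only. On data simulated for this comparison (14999 genes), 73 of 100 genes changed by a log2 fold of 1 and 41 of 100 changed by 0.5 were recovered, with 7 false calls. The simulation drew each gene on its own, with no effect of batch or of single libraries. Its false calls are therefore no error rate for the real libraries. Alternatives were DESeq2 1.42.0, limma 3.58.1 on log2(TPM + 0.5), other filters, other sets of libraries and each library left out.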

Additional observations from a re-analysis of the deposited data

Results flagged for a closer look

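Within each lobule, the highest and the lowest of the 4 libraries were compared with the nearest other by Dixon's ratio, over 280 sets of 4 values. In 33 sets 1 library stood apart. The chance rate of about 1 in 20 holds for independent sets of normally spread values, which these are not, so it is no yardstick for the 33. List sums share genes with the single-gene sets, and some genes were picked after their values were seen. Some sets were at or near 0 in all but 1 library.

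CUL4,5 #1 stood apart in 17 of the 33. Its summed TPM was 5023 for meningeal fibroblast genes, 2856 for red cell genes, 432.6 for collagen genes and 313.1 for ependymal genes. In TPM of single genes it held 4627 of Ptgds, 892.5 of Hba-a1, 48.22 of Fmod, 22.14 of Crabp2, 20.74 of Col1a1, 15.08 of Ogn, 13.8 of Slc47a1, 10.5 of Prg4, 8.693 of Pdgfra and 3.372 of Slc26a7. It was lowest for Hspa1a at 7.563 TPM, and it alone held Rd3 (0.07799 TPM) and Chat (0.04692 TPM) in CUL4,5.

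CENT2 #2 stood apart in 6 sets, with a total of 15475795 estimated counts, the lowest of CENT2, and with 88.12 TPM of Kit, 4.478 of Gm10080, 2.26 of Car13, 0.2723 of Dppa5a and 0.1013 of Pou5f1. CENT2 #1 stood apart for Chat at 9.481 TPM and Dbh at 7.336 TPM. CENT2 #3 was lowest for Hspb1 at 14.47 TPM and highest for Sphk1 at 9.171 TPM, and CENT2 #4 had the lowest sum of embryonic stem cell genes at 10.22 TPM. CUL4,5 #2 stood apart for Col5a3 at 5.072 TPM and Wdr63 at 0.04833 TPM, CUL4,5 #3 for the sum of embryonic stem cell genes at 22.91 TPM and for Mapk15 at 0.1037 TPM, and CUL4,5 #4 for Col6a5 at 0.02216 TPM. Values of this last size stand for very few counts over CUL4,5, 2 for Col6a5 and 1 each for Wdr63 and Mapk15. Rd3 had 0 counts there, and its counted transcripts did not add up to its TPM.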

How the results depend on the processing

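The genes called higher in CENT2 numbered 453. They were 751 with DESeq2, 861 with all 70 libraries in the model, 200 with the 6 libraries of the shared batches, 295 and 284 with limma on log2(TPM + 0.5) and log2(TPM + 0.1), and 249 with limma and no filter. Leaving out each library gave 290 to 755. The genes higher in CUL4,5 numbered 120. They were 379 with DESeq2, 184 with the 15 cerebellar cortex libraries, 38 with the 6 libraries, 309 with the batch block and 49 with limma and no filter, and 40 to 154 with each library left out. With the replicate block by title number the counts were 442 and 97; same-numbered libraries correlated at -0.103 to 0.384 and share only a number. The genes higher in UVU than in CENT2 (366) were 215 and 221 with limma at 0.1 and 0.5, those higher in UVU than in CUL4,5 (310) were 199 and 203, and those higher in CUL4,5 than in UVU (418) were 651 with DESeq2. Leaving out each library gave 402 to 884 and 217 to 497 genes for CENT2 against UVU, and 250 to 526 and 206 to 405 for CUL4,5. The median r was 0.9728 within CENT2, 0.9740 within CUL4,5 and 0.9670 between lobules with log2(TPM + 0.1), and 0.9661, 0.9767 and 0.9542 over genes with a mean of at least 1 TPM. Where the fit has fewer libraries or genes the cause of a lower count lies in part in its construction, and the cause of the other changes was not tested. Of the 61 named genes called, 58 kept their call with the batch block, 61 with DESeq2, 44 without CENT2 #1 and #2, and 42 to 54 with a library left out, with no change of direction. With 4 pools per lobule, differences near a log2 fold of 0.5 are often missed.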
